A study of Mus musculus with 9 samples.

Results

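The Wnt ligands, their receptors and co-receptors, their secreted antagonists and agonists, and the core intracellular effectors of the pathway form a set of 46 genes of the 46603 gene identifiers in the deposited counts, of which 21624 are protein-coding. Members were the protein-coding genes named Wnt, Fzd, Sfrp or Dkk with a number in the GENCODE M21 annotation of GRCm38, together with Axin1, Axin2, Lef1, Tcf7, Lrp5, Lrp6, Ctnnb1, Rspo1, Rspo2 and Rspo3, with Wnt9a left out. RNA sequencing covered 3 groups of 3 libraries each. The mimics were poly(I:C), made of double-stranded RNA, and poly(dA:dT), made of double-stranded DNA, each transfected at 10 µg/ml. The mock group held cells given the lipid reagent alone, Lipofectamine in Opti-MEM, and all groups were collected at 6 h. Every group, mock included, was made of β-actin (Actb) knockout fibroblasts of BALB/c mice, derived from embryos of day 10.5 and obtained from another laboratory. Wild-type cells were not analysed here, so no value below separates the effect of a mimic from the missing β-actin. The labels do not say whether the 3 libraries of a group were separate cultures, so the p-values reflect no more than the spread among these libraries, part of which may be technical.

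Wnt proteins are secreted lipid-modified ligands that bind a Frizzled receptor (Fzd genes) together with the co-receptor Lrp5 or Lrp6. Binding stops a destruction complex built on the scaffold Axin from marking β-catenin (Ctnnb1) for degradation, and β-catenin then acts in the nucleus with the DNA-binding factors of the Lef and Tcf family. Secreted Frizzled-related proteins (Sfrp genes) act outside the cell on the ligands. Some Dickkopf proteins (Dkk genes), such as Dkk1, block the co-receptors, and R-spondins (Rspo genes) raise the amount of receptor at the cell surface. In fibroblasts the pathway is known for roles in proliferation, matrix production and lineage choice. All of these steps involve protein that RNA counts do not measure.

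Counts assigned to genes ranged between 16082772 and 29219797 per library, and levels are given as CPM, counts relative to the TMM-scaled library size. A count of 0 then allows up to 0.107 to 0.18 CPM, the level of 3 counts in a library, for counting error only. Of 10 fibroblast and mesenchyme markers, 9 were tested and Lum had 1 count in all. Their summed level was 6460 to 6760 CPM after poly(I:C), 7260 to 7380 CPM after poly(dA:dT) and 7530 to 7690 CPM in mock. After each mimic 7 of the 9 were lower than in mock, while Fn1 was higher. Of 7 endothelial markers, Tie1 and Emcn had 0 counts in every library, and the summed level was 5.58 to 6.83 CPM after poly(I:C), 3.69 to 4.87 CPM after poly(dA:dT) and 1.95 to 2.61 CPM in mock, with 3 of 4 tested markers higher after each mimic. The 8 macrophage markers, with Ptprc at 0, summed to 5.76 to 7.75 CPM after poly(I:C), 8.47 to 8.76 CPM after poly(dA:dT) and 10.5 to 11.3 CPM in mock, with 3 of 4 tested markers lower than mock after poly(I:C) and 1 after poly(dA:dT). Sums of epithelial markers were 9 to 9.45, 8.73 to 9.67 and 9.16 to 10.6 CPM in poly(I:C), poly(dA:dT) and mock cells. These sums hide opposite moves after poly(I:C), where 2 of 3 tested markers were higher than mock and 1 was lower. Cdh1 and Krt14 had log2 fold changes of 1.18 and 1.02, and the more abundant Krt18 had -0.37. None of the 3 was called after poly(dA:dT). Sums of neural markers, with Sox2 and Dcx at 0, were 361 to 369, 361 to 391 and 399 to 408 CPM in the same order of groups. Nes alone averaged 301, 311 and 335 CPM of these, Map2 35.2, 37.1 and 36.8 CPM, and Tubb3 26.74, 27.56 and 32.05 CPM. No group averaged more than 0.615 CPM for Gfap or 0.326 CPM for Elavl3. Of 3 tested neural markers, Nes and Tubb3 were lower than mock after each mimic, and Map2 was not called. Skeletal muscle markers, with 4 of 7 at 0, summed to 9.6 to 12, 15.4 to 15.7 and 13.5 to 17.8 CPM, of which Des averaged 10.6, 15.5 and 15.8 CPM. The part of any of these shifts in the Wnt results was not tested, and in bulk samples fewer cells of a type and less RNA per cell cannot be told apart.

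Both mimics were followed by changes among the Wnt genes in both directions, with no common direction for the set. Frizzled receptors and Sfrp antagonists held members that rose and members that fell after each mimic, and Wnt ligands did so after poly(I:C), while both co-receptors and the β-catenin gene fell after both. After poly(I:C) the largest rises belonged to the nuclear factor Lef1, at 3.46-fold mock, and to the antagonist Sfrp4, at 3.19-fold, and the largest falls to the receptor Fzd2, at 0.412-fold, and the antagonist Sfrp2, at 0.482-fold. Of the 46 members, 28 had enough reads to be tested with edgeR's quasi-likelihood test, and a gene is called where its Benjamini-Hochberg adjusted p over all 14176 genes tested is under 0.05. Against mock, 18 of the 28 were called after poly(I:C), which is 64.3%, where 76.1% of all genes tested were called. They divided into 7 that rose, 25% against 39.8% of all genes, and 11 that fell, 39.3% against 36.3%. After poly(dA:dT), 12 members were called against mock, 42.9% where the share of all genes was 52.8%. Of these, 5 rose and 7 fell, or 17.9% and 25% of the members, with 26.6% and 26.2% of all genes called higher and lower. Between the mimics, 18 members were called, again 64.3%, where 63.4% of all genes were called. In this comparison 6 members were higher after poly(I:C) and 12 lower, 21.4% and 42.9%, with 31.3% and 32.1% over all genes. The members' median log2 fold change was -0.06 for poly(I:C) against mock, -0.06 for poly(dA:dT) against mock and -0.11 between the mimics, where all genes had 0.04, 0.01 and 0.00. The share of members called was thus near or below that of the whole table in each comparison. The comparisons with mock share the same 3 mock libraries.

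**Figure D1:**
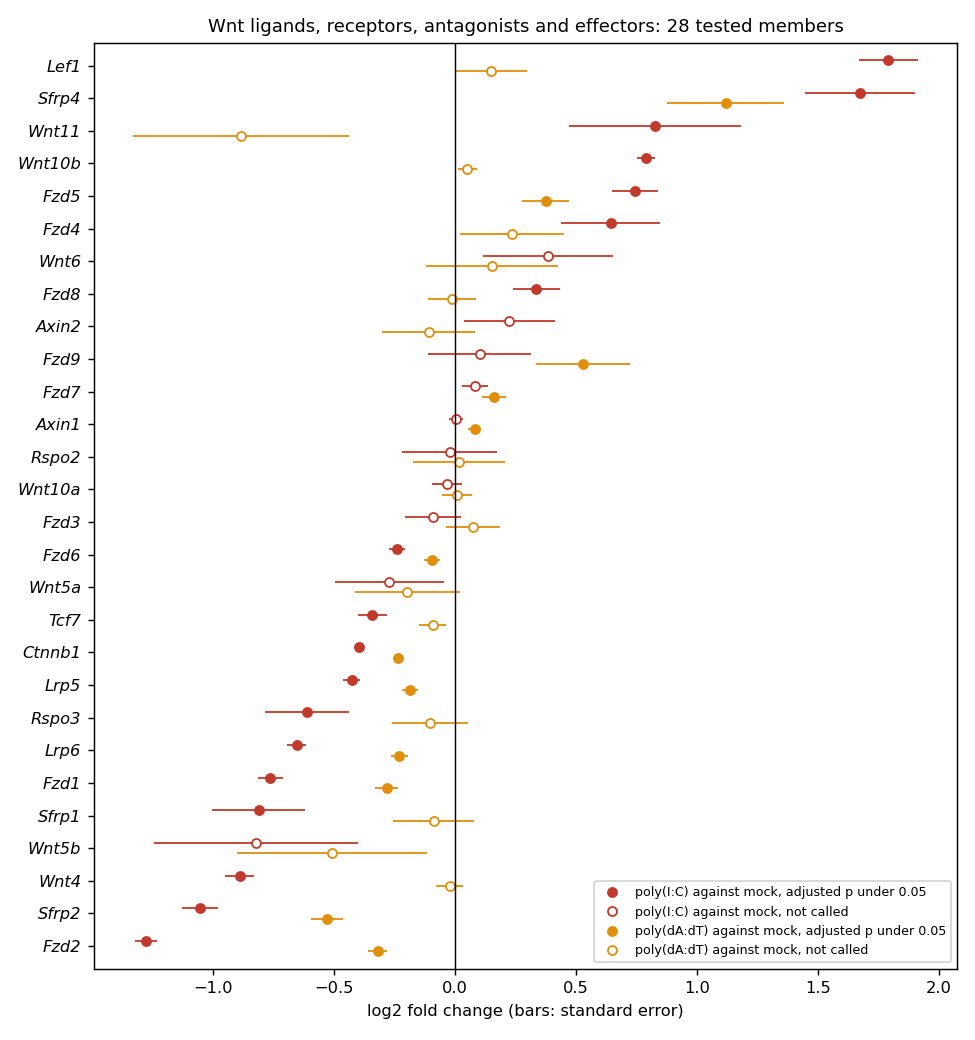
Log2 fold change against mock of the 28 tested members (x axis) by gene (y axis, ordered by the poly(I:C) value), with red for poly(I:C), orange for poly(dA:dT), bars for the standard error and filled points for an adjusted p under 0.05. Lef1 and Sfrp4 lie at the top, at 1.79 and 1.68 after poly(I:C), and Fzd2 lies at the bottom at -1.28; for most called genes the orange point lies nearer to 0 than the red one.

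The called members followed a small number of patterns over the 3 comparisons. Fzd5 and Sfrp4 were higher after both mimics than in mock, and higher after poly(I:C) than after poly(dA:dT). Lef1, Wnt10b, Fzd8 and Wnt11 were higher after poly(I:C) than in both other groups, with poly(dA:dT) against mock not called, and Fzd4 was called higher for poly(I:C) against mock alone. A group of 7 genes, Ctnnb1, Fzd1, Fzd2, Fzd6, Lrp5, Lrp6 and Sfrp2, was lower after both mimics and lower after poly(I:C) than after poly(dA:dT). Rspo3, Sfrp1, Tcf7 and Wnt4 were lower after poly(I:C) than in both other groups. Axin1 was higher after poly(dA:dT) than in both other groups, and Fzd7 and Fzd9 were called higher for poly(dA:dT) against mock alone. The other 7 tested members, Axin2, Fzd3, Rspo2, Wnt5a, Wnt5b, Wnt6 and Wnt10a, were called in no comparison.

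The promoter sequences of 4 of these genes are shown, a pair that rose after poly(I:C) and a pair that fell, chosen after their values were seen from members with a RefSeq entry. Each runs from 250 bases before to 50 bases after a start site, in the direction of the gene, from RefSeq on GRCm38.p6, which is a C57BL/6J genome while the cells were BALB/c. Capitals mark the GC box, the letters GGGCGG or CCGCCC. Lef1 has 4 RefSeq starts, and the one nearest to the GENCODE start, 148 bases away, is shown (chr3:131110073-131110372, plus strand), as are Wnt10b (chr15:98778101-98778400, minus strand), Sfrp2 (chr3:83766071-83766370, plus strand) and Wnt4 (chr4:137277385-137277684, plus strand). The start used for Wnt4 lies 146 bases from its GENCODE start.
Lef1: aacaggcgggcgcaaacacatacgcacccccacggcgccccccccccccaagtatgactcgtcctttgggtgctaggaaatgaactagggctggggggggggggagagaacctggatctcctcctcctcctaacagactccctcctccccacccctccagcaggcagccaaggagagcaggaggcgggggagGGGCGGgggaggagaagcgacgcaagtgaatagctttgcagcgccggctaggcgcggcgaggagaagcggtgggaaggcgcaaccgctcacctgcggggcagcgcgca
Wnt10b: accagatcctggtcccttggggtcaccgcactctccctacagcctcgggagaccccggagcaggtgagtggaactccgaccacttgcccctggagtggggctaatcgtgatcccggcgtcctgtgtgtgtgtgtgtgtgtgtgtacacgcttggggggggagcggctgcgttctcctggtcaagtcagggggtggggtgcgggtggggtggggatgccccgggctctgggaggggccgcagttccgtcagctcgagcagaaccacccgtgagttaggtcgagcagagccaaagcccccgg
Sfrp2: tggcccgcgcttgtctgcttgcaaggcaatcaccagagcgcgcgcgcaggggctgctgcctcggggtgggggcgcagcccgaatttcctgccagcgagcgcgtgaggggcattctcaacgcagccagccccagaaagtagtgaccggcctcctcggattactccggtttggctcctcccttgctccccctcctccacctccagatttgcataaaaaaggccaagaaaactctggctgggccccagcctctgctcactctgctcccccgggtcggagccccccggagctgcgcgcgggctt
Wnt4: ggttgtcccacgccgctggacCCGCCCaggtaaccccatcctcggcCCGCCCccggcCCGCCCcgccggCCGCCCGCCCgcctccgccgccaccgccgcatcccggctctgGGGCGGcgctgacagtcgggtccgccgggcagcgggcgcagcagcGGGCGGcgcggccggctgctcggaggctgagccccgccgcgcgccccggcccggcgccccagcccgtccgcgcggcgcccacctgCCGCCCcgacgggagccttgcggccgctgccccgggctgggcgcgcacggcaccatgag

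These windows are rich in G and C, which make up 67.3% of the bases for Lef1, 66.3% for Wnt10b, 66% for Sfrp2 and 84.3% for Wnt4, and they hold 21, 18, 22 and 51 CpG dinucleotides in the same order of genes. Lef1 has 1 GC box, 58 bases before the start, Wnt4 has 8, of which a pair overlap, and Wnt10b and Sfrp2 have none. Of the 46 members, 29 had a promoter in the table, and 22 of these 29, or 75.9%, held a GC box on either strand, where 35.7% of all 32851 promoters did. Called members without a promoter there were Fzd2, Fzd6, Fzd8, Lrp5, Lrp6, Sfrp1, Sfrp4, Rspo3 and Axin1. The TCF/LEF motif ATCAAAG was found in 1 of the 29, the Wnt11 promoter, 51 bases before its start, which is 3.45% beside 3.73% of all promoters. The NF-kB motif, GGG and TTCC with any 3 bases between them, was found in 3 of the 29, those of Rspo1, Wnt2b and Wnt16, 10.3% beside 5.56%. None of these 3 genes had enough reads to be tested. The AP-1 motif TGANTCA occurred in 1, Wnt5b, where 7.81% of all promoters had it, and the interferon response motif, GAAA and again GAAA with any 2 bases between them, in none of these windows, where 3.44% of all had it. TATAAA was present in 4 of the 29, or 13.8%, and in 13.6% of all promoters. All motifs were searched on both strands as exact letters, and a match or its absence in these windows says nothing of a factor's binding.

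Among the ligands, Wnt10b rose, Wnt4 fell and Wnt10a did not pass the test, and these were the 3 ligands with the highest levels. Of 18 Wnt genes, 7 were tested and 3 were called after poly(I:C), 42.9% where 76.1% of all genes were called. None was called after poly(dA:dT) by edgeR, which called 52.8% of all genes. There 1 had an unadjusted p under 0.05 (Wnt11), and DESeq2 called none of the ligands. Wnt10b (ENSMUSG00000022996, chromosome 15, 98770712 to 98778150, minus strand), a ligand of the β-catenin route known to hold back fat cell formation, had 102, 102 and 106 CPM after poly(I:C), 61.2, 61.3 and 63.1 CPM after poly(dA:dT) and 60.1, 59.0 and 60.2 CPM in mock. Those after poly(I:C) stood far above the other 6, which lay within a few CPM of each other. Its log2 fold change for poly(I:C) was 0.79 ± 0.04 (SE) against mock (adjusted p = 2.25e-46) and 0.74 ± 0.04 against poly(dA:dT) (adjusted p = 1.17e-42), and 0.05 ± 0.04 for poly(dA:dT) against mock (adjusted p = 0.29). With libraries scaled by total counts alone, the last of these became 0.12 with an adjusted p of 0.00488.

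Wnt4 (ENSMUSG00000036856, chromosome 4, 137277489 to 137299726, plus strand), a ligand needed for kidney tubule and female reproductive tract development, showed the opposite direction. It had 19.9, 18.7 and 22.1 CPM after poly(I:C), 39.1, 35.7 and 35.4 CPM after poly(dA:dT) and 38.7, 36.6 and 36.1 CPM in mock. The 3 poly(I:C) libraries lay well below all others, while the poly(dA:dT) and mock libraries overlapped. The log2 fold change for poly(I:C) was -0.89 ± 0.06 against mock (adjusted p = 4.4e-30) and -0.87 ± 0.06 against poly(dA:dT) (adjusted p = 2.27e-28). For poly(dA:dT) against mock it was -0.02 ± 0.05, with a 95% interval of -0.13 to 0.08 (adjusted p = 0.759).

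Wnt11 (ENSMUSG00000015957, chromosome 7), a ligand known for cell movements in gastrulation and for branching of the kidney duct, was counted near the limit of detection. It had 22, 15 and 25 counts after poly(I:C), 4, 10 and 7 counts after poly(dA:dT) and 13, 13 and 15 counts in mock, or 1.07, 0.646 and 1.5 CPM, 0.192, 0.427 and 0.304 CPM, and 0.465, 0.539 and 0.789 CPM in the same groups. The poly(I:C) and mock libraries overlapped, and all poly(dA:dT) libraries lay below both. The fall of Wnt11 for poly(dA:dT) against mock, 0.88 on the log2 scale, had an unadjusted p under 0.05 but was not called. The log2 fold change was 1.71 ± 0.41 between the mimics (adjusted p = 0.000113) and 0.83 ± 0.36 for poly(I:C) against mock (adjusted p = 0.0287). The call against mock was lost without poly(I:C) replicate 1 (0.80, adjusted p = 0.0722) or replicate 3 (0.54, adjusted p = 0.242), without mock replicate 1 (0.66, adjusted p = 0.138) or replicate 2 (0.77, adjusted p = 0.0779), with no filter on low counts (0.80, adjusted p = 0.0594) and with DESeq2 (0.82, adjusted p = 0.0894).

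The other 4 tested ligands were not called. Wnt10a, a ligand known from tooth and skin appendage development, had 26.9 ± 1.82 CPM after poly(I:C), 27.8 ± 1.94 after poly(dA:dT) and 27.5 ± 1.92 in mock (SD, n = 3 each), and its 95% interval for poly(I:C) against mock was -0.16 to 0.09 on the log2 scale. Wnt5a, the best studied ligand of β-catenin-independent signalling, had 1.74 ± 0.136, 1.82 ± 0.399 and 2.09 ± 0.308 CPM in poly(I:C), poly(dA:dT) and mock cells. Its interval for poly(I:C) against mock, -0.71 to 0.17, is wide enough to hold a fall as large as that of Tcf7 or Ctnnb1. Wnt5b averaged 0.377, 0.496 and 0.691 CPM and Wnt6 1.52, 1.31 and 1.15 CPM in the same order of groups. Wnt5b was called lower for poly(I:C) against mock without poly(I:C) replicate 1 (-1.22, adjusted p = 0.0316) or mock replicate 3 (-0.999, adjusted p = 0.0371), where all libraries gave -0.82 (adjusted p = 0.069).

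The Frizzled receptors changed in opposite directions, with Fzd1, Fzd2 and Fzd6 lower after both mimics and Fzd4, Fzd5 and Fzd8 higher after poly(I:C). Of 10 Fzd genes, 9 were tested and Fzd10 had 0 counts in all 9 libraries. After poly(I:C), 3 rose and 3 fell against mock, and after poly(dA:dT) likewise 3 rose (Fzd5, Fzd7 and Fzd9) and 3 fell, so that 66.7% were called after each, with 76.1% and 52.8% of all genes. Rises and falls were 33.3% each after each mimic. Over all genes they were 39.8% and 36.3% after poly(I:C), and 26.6% and 26.2% after poly(dA:dT). Fzd2 (ENSMUSG00000050288, chromosome 11, 102604396 to 102608058, plus strand), a receptor for several Wnt ligands that include Wnt5a, had the largest fall of all members. It had 34.4, 33.3 and 36.6 CPM after poly(I:C), 70.2, 67.2 and 64.8 CPM after poly(dA:dT) and 87.6, 85.5 and 77.9 CPM in mock. The 3 groups did not overlap, with poly(dA:dT) between the other two and nearer to mock. For Fzd2 the log2 fold change was -1.28 ± 0.04 for poly(I:C) against mock (adjusted p = 5e-61), -0.32 ± 0.04 for poly(dA:dT) against mock (adjusted p = 1.86e-12) and -0.96 ± 0.05 between the mimics (adjusted p = 4.11e-44).

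Fzd1, on chromosome 5, had 31.6, 28.4 and 29.7 CPM after poly(I:C), 41.7, 43.3 and 40.1 CPM after poly(dA:dT) and 48.9, 49.6 and 54.2 CPM in mock. Its groups were ordered as for Fzd2 without overlap, with log2 fold changes against mock of -0.76 ± 0.05 after poly(I:C) (adjusted p = 2.54e-30) and -0.28 ± 0.05 after poly(dA:dT) (adjusted p = 1.45e-07). Fzd6, a receptor known for hair patterning and planar polarity, moved least of the 3, with 102, 98.7 and 98.6 CPM after poly(I:C), 112, 106 and 114 CPM after poly(dA:dT) and 122, 119 and 111 CPM in mock. It fell by 0.24 ± 0.03 on the log2 scale after poly(I:C) (adjusted p = 7.9e-11) and by 0.10 ± 0.03 after poly(dA:dT) (adjusted p = 0.00906), where the poly(dA:dT) and mock libraries overlapped. The poly(dA:dT) call of Fzd6 was lost without mock replicate 1 (-0.06, adjusted p = 0.154), without poly(dA:dT) replicate 2 (-0.07, adjusted p = 0.121) and with scaling by total counts (-0.02, adjusted p = 0.615).

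Fzd5, a receptor with known roles in the eye, yolk sac and gut, rose after both mimics. It had 14.7, 12.8 and 13.0 CPM after poly(I:C), 10.9, 9.62 and 10.9 CPM after poly(dA:dT) and 7.55, 8.38 and 8.36 CPM in mock, in 3 groups that did not overlap. For Fzd5 the log2 fold change was 0.74 ± 0.10 for poly(I:C) against mock (adjusted p = 2.91e-12), 0.37 ± 0.10 for poly(dA:dT) against mock (adjusted p = 0.000596) and 0.37 ± 0.09 between the mimics (adjusted p = 0.000223). Fzd5 shares 17.8% of its exon length with Gm38058 on the opposite strand, which was itself counted 2, 1 and 1 times over the poly(I:C), poly(dA:dT) and mock groups. The kit does not mark strand, so reads from the shared stretch cannot be assigned to either gene.

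Fzd4, the receptor through which norrin acts in retinal vessels, had 2.71, 2.84 and 2.52 CPM after poly(I:C), 2.35, 1.79 and 2.00 CPM after poly(dA:dT) and 1.68, 1.91 and 1.58 CPM in mock. The poly(I:C) libraries lay above all others, with a log2 fold change against mock of 0.64 ± 0.21 (adjusted p = 0.00328), and the poly(dA:dT) and mock libraries overlapped. The difference between the mimics, 0.41 ± 0.20, had an adjusted p of 0.0699, and it was called with scaling by total counts (0.45, adjusted p = 0.0455) and without poly(dA:dT) replicate 1 (0.51, adjusted p = 0.0446). Fzd8, a receptor first described in head development, had 11.3, 10.7 and 11.8 CPM after poly(I:C), 8.57, 9.11 and 8.78 CPM after poly(dA:dT) and 8.94, 9.01 and 8.68 CPM in mock. It was higher after poly(I:C) than in mock by 0.34 ± 0.10 (adjusted p = 0.00114) and than after poly(dA:dT) by 0.35 ± 0.10 (adjusted p = 0.00118) on the log2 scale, and the other two groups overlapped. The endothelial marker sum given above moved in the same direction as Fzd4, and its part in the Fzd4 result was not tested.

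Fzd7, a receptor known from stem cells, had 40.1, 35.1 and 41.2 CPM after poly(I:C), 41.1, 41.9 and 39.3 CPM after poly(dA:dT) and 36.4, 37.0 and 35.8 CPM in mock. All poly(dA:dT) libraries lay above mock (log2 fold change 0.16 ± 0.05, adjusted p = 0.00491), and poly(I:C) replicate 2 lay below every mock library. Without that library the poly(I:C) difference from mock was called (0.16, adjusted p = 0.0125), where all libraries gave 0.08 (adjusted p = 0.146). It was also called with upper-quartile scaling (0.12, adjusted p = 0.0402), with scaling by total counts (0.20, adjusted p = 0.000456) and with a minimum of 50 counts in 3 libraries (0.13, adjusted p = 0.0222). Fzd9 had 2.86, 1.81 and 1.98 CPM after poly(I:C), 2.25, 2.74 and 3.91 CPM after poly(dA:dT) and 1.65, 2.32 and 2.31 CPM in mock, with overlap between all groups. Its rise after poly(dA:dT), 0.53 ± 0.20 (adjusted p = 0.0166), rested on single libraries and was lost without poly(dA:dT) replicate 3 (0.28, adjusted p = 0.326), without mock replicate 1 (0.36, adjusted p = 0.171) and with DESeq2 (0.50, adjusted p = 0.0958). For poly(I:C) against poly(dA:dT), Fzd9 had -0.43 (adjusted p = 0.0527) and was called without poly(I:C) replicate 1 (-0.66, adjusted p = 0.0121), without poly(dA:dT) replicate 1 (-0.59, adjusted p = 0.0135) or 2 (-0.49, adjusted p = 0.0493) and in a fit of those groups alone (-0.43, adjusted p = 0.0463). Fzd3, a receptor of axon guidance, averaged 6.96, 7.85 and 7.57 CPM in poly(I:C), poly(dA:dT) and mock cells and was not called.

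**Figure D2:**
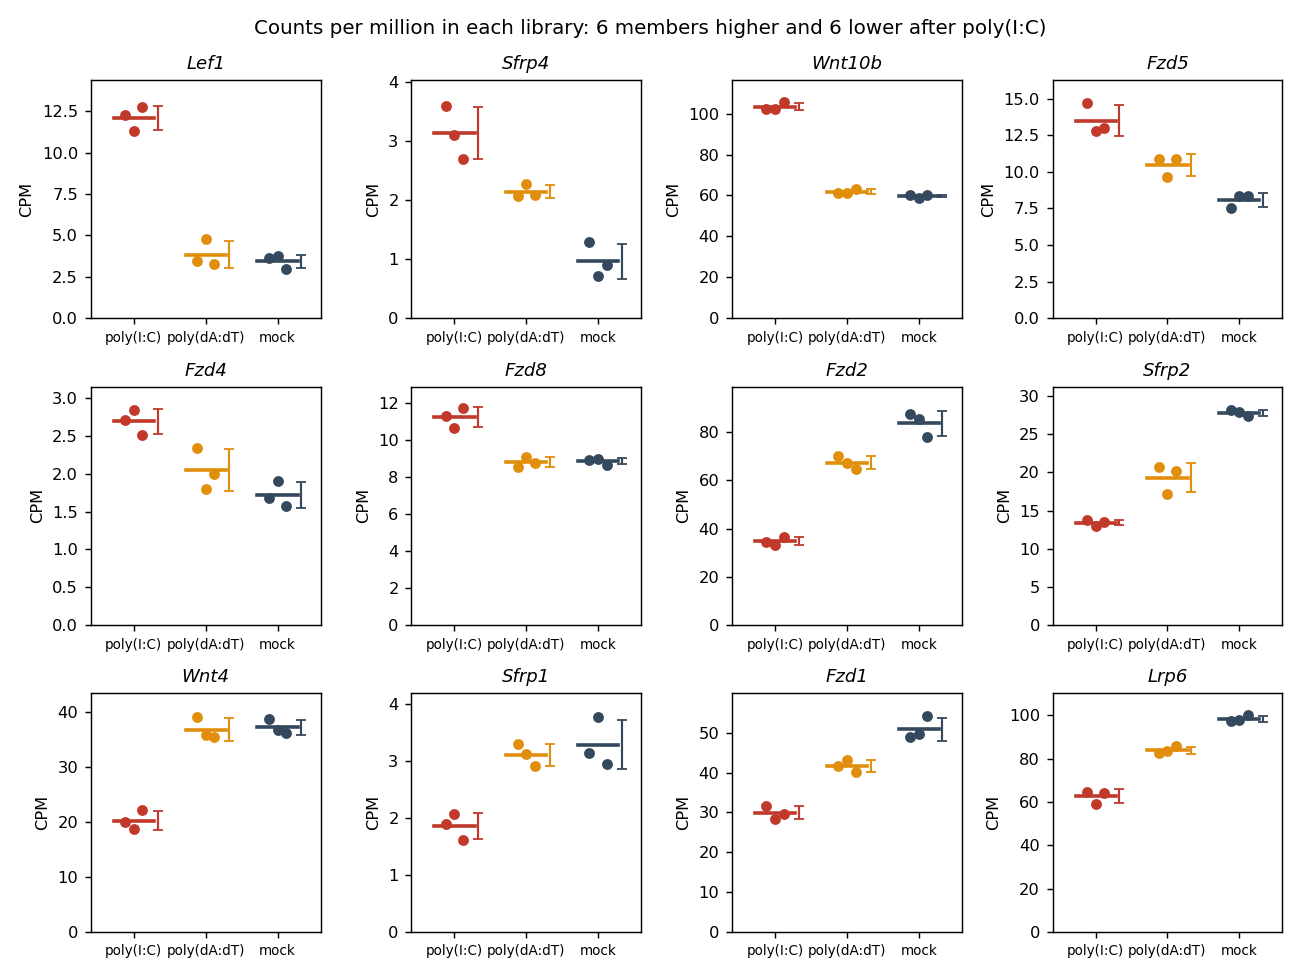
CPM (y axes, from 0) in each library of 12 members, by group (x axes); points are libraries, horizontal lines are means and the bars beside them are 1 SD (n = 3). The upper row and the first 2 panels of the middle row hold genes higher after poly(I:C) than in mock, and the others hold genes that were lower; in the Wnt10b, Wnt4 and Fzd8 panels poly(dA:dT) lies at the mock level, and in the Fzd2 panel it lies between poly(I:C) and mock.

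Both co-receptors, which sit beside Frizzled in the β-catenin route, fell after both mimics, and more after poly(I:C). Lrp6 (ENSMUSG00000030201, chromosome 6, 134446476 to 134566965, minus strand) had 64.6, 59.0 and 64.3 CPM after poly(I:C), 82.4, 83.4 and 85.6 CPM after poly(dA:dT) and 97.5, 97.9 and 99.9 CPM in mock. The 3 groups did not overlap. Lrp6 had a log2 fold change of -0.65 ± 0.04 for poly(I:C) against mock (adjusted p = 2.92e-37), -0.23 ± 0.04 for poly(dA:dT) against mock (adjusted p = 5.85e-09) and -0.42 ± 0.04 between the mimics (adjusted p = 4.26e-20). Lrp5 (chromosome 19), a co-receptor also known for its role in bone mass, had 85.1, 87.2 and 88.9 CPM after poly(I:C), 98.7, 108 and 102 CPM after poly(dA:dT) and 117, 119 and 114 CPM in mock. Its groups were ordered alike without overlap, with log2 fold changes against mock of -0.43 ± 0.03 after poly(I:C) (adjusted p = 1.13e-24) and -0.19 ± 0.03 after poly(dA:dT) (adjusted p = 3.1e-07).

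Of the R-spondins, Rspo3 fell after poly(I:C), Rspo2 was not called and Rspo1 had 0 counts in every library. Rspo3, an agonist needed for vessel and placenta formation, had 2.18, 2.37 and 2.94 CPM after poly(I:C), 3.83, 3.21 and 3.52 CPM after poly(dA:dT) and 3.79, 3.69 and 3.84 CPM in mock. The poly(I:C) libraries lay below all others, and the log2 fold change was -0.61 ± 0.17 against mock (adjusted p = 0.000889) and -0.51 ± 0.18 against poly(dA:dT) (adjusted p = 0.00864). The second of these calls was lost without poly(I:C) replicate 1 (-0.43, adjusted p = 0.0515). Rspo3 shares 13.1% of its exon length with Gm48159 on the opposite strand, which is not among the counted genes. Rspo2, known from limb and lung development, averaged 2.44, 2.49 and 2.48 CPM in poly(I:C), poly(dA:dT) and mock cells, with a 95% interval of -0.41 to 0.36 for poly(I:C) against mock. For poly(dA:dT) against mock neither of the 2 tested R-spondins was called by edgeR, which called 52.8% of all genes. Neither had an unadjusted p under 0.05, and neither was called by DESeq2.

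The secreted Frizzled-related proteins, which carry a Wnt-binding domain like that of the receptors, moved in opposite directions. Sfrp2 and Sfrp1 fell after poly(I:C), and Sfrp4 rose after both mimics. Sfrp2 (ENSMUSG00000027996, chromosome 3, 83766321 to 83774316, plus strand), whose promoter is printed above, had 13.8, 13.0 and 13.5 CPM after poly(I:C), 20.6, 17.2 and 20.1 CPM after poly(dA:dT) and 28.1, 27.9 and 27.4 CPM in mock. The 3 groups did not overlap, and poly(dA:dT) lay between the other two. For Sfrp2 the log2 fold change was -1.05 ± 0.07 for poly(I:C) against mock (adjusted p = 9.28e-30), -0.53 ± 0.07 for poly(dA:dT) against mock (adjusted p = 3.78e-12) and -0.52 ± 0.08 between the mimics (adjusted p = 1.15e-09). Sfrp2 shares 16.1% of its exon length with Gm26771 on the opposite strand, which had 20, 57 and 48 counts over the poly(I:C), poly(dA:dT) and mock groups, where Sfrp2 had 811, 1296 and 1979.

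Sfrp1, an antagonist of the same family on chromosome 8, had 1.89, 2.07 and 1.62 CPM after poly(I:C), 3.30, 3.12 and 2.91 CPM after poly(dA:dT) and 3.15, 3.78 and 2.94 CPM in mock. The poly(I:C) libraries lay below all others (log2 fold change against mock -0.81 ± 0.19, adjusted p = 6.12e-05), and the poly(dA:dT) and mock libraries overlapped. Sfrp4 (ENSMUSG00000021319, chromosome 13, 19623104 to 19632994, plus strand), known for its role in bone, had 3.59, 3.10 and 2.70 CPM after poly(I:C), 2.06, 2.27 and 2.09 CPM after poly(dA:dT) and 1.29, 0.706 and 0.894 CPM in mock. Its groups did not overlap and ran in the order opposite to that of Sfrp2. The log2 fold change of Sfrp4 was 1.68 ± 0.23 for poly(I:C) against mock (adjusted p = 2.98e-11) and 1.12 ± 0.24 for poly(dA:dT) against mock (adjusted p = 2.65e-05). The difference between the mimics was 0.56 ± 0.20 (adjusted p = 0.0104) and was lost without poly(I:C) replicate 1 (0.45, adjusted p = 0.0812). None of the 4 Dkk genes reached the filter, and neither did Sfrp5.

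Among the intracellular effectors Lef1 rose after poly(I:C), while its relative Tcf7 and the β-catenin gene Ctnnb1 fell. Lef1 (ENSMUSG00000027985, chromosome 3, 131110471 to 131224356, plus strand), the DNA-binding partner of β-catenin known from lymphocytes, hair and mesenchyme, had 12.3, 11.3 and 12.8 CPM after poly(I:C), 3.45, 4.79 and 3.30 CPM after poly(dA:dT) and 3.61, 3.73 and 3.00 CPM in mock. Every poly(I:C) library had more than every other library by a wide margin, and the poly(dA:dT) and mock libraries overlapped. For Lef1 the log2 fold change was 1.79 ± 0.12 for poly(I:C) against mock (adjusted p = 6.49e-30) and 1.64 ± 0.12 against poly(dA:dT) (adjusted p = 1.24e-26). For poly(dA:dT) against mock it was 0.15 ± 0.15, with a 95% interval of -0.15 to 0.44 (adjusted p = 0.425). Lef1 shares 13.7% of its exon length with the antisense gene Gm43352, which was counted 19, 4 and 3 times over the poly(I:C), poly(dA:dT) and mock groups, where Lef1 had 729, 260 and 248 counts.

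Tcf7, a transcription factor of the same family on chromosome 11, had 26.0, 27.5 and 28.4 CPM after poly(I:C), 32.7, 35.2 and 29.2 CPM after poly(dA:dT) and 33.3, 36.6 and 33.8 CPM in mock. All poly(I:C) libraries lay below the rest, with a log2 fold change of -0.34 ± 0.06 against mock (adjusted p = 8.82e-08) and -0.25 ± 0.06 against poly(dA:dT) (adjusted p = 0.000132). For poly(dA:dT) against mock Tcf7 had -0.09 (adjusted p = 0.166), and it was called without poly(dA:dT) replicate 2 (-0.16, adjusted p = 0.03). Ctnnb1 (ENSMUSG00000006932, chromosome 9, 120929216 to 120960507, plus strand), which encodes β-catenin, had 602, 606 and 602 CPM after poly(I:C), 675, 669 and 676 CPM after poly(dA:dT) and 795, 782 and 804 CPM in mock. The libraries of a group lay close together and the groups were well apart. The log2 fold change of Ctnnb1 was -0.40 ± 0.02 for poly(I:C) against mock (adjusted p = 1.69e-45), -0.24 ± 0.02 for poly(dA:dT) against mock (adjusted p = 6.31e-24) and -0.16 ± 0.02 between the mimics (adjusted p = 2.91e-13). It shares 14.6% of its exon length with Ulk4 on the opposite strand, which had 1392, 1307 and 1338 counts over the poly(I:C), poly(dA:dT) and mock groups, where Ctnnb1 had 36522, 45316 and 56367.

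Axin1, the scaffold of the destruction complex, had 168, 170 and 166 CPM after poly(I:C), 176, 174 and 183 CPM after poly(dA:dT) and 168, 167 and 170 CPM in mock. The poly(dA:dT) libraries lay above the rest by a small margin, with a log2 fold change of 0.08 ± 0.03 against mock (adjusted p = 0.00693) and of -0.08 ± 0.03 between the mimics (adjusted p = 0.00984). Both calls were lost without poly(dA:dT) replicate 3 (0.06, adjusted p = 0.104, and -0.06, adjusted p = 0.0932). DESeq2 did not make the first (0.06, adjusted p = 0.0648), and scaling by total counts (-0.04, adjusted p = 0.226) or a minimum of 50 counts in 3 libraries (-0.05, adjusted p = 0.137) ended the second. With total counts, Axin1 was called higher for poly(I:C) against mock (0.12, adjusted p = 6.47e-05). Axin2, a scaffold that is also a widely used readout of β-catenin activity, had 2.28, 3.06 and 3.24 CPM after poly(I:C), 2.15, 2.39 and 2.22 CPM after poly(dA:dT) and 2.29, 2.74 and 2.26 CPM in mock. It was called in no comparison: its 95% interval for poly(I:C) against mock was -0.15 to 0.60 on the log2 scale (adjusted p = 0.273). Without poly(I:C) replicate 1, its lowest poly(I:C) library, Axin2 was called higher after poly(I:C) than after poly(dA:dT) (0.47, adjusted p = 0.0449).

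Levels between genes were compared as CPM per kb of exon. In mock, Ctnnb1 was highest among all members, at 153 ± 2.08 CPM per kb (SD, n = 3), followed by Axin1 at 43.9 ± 0.385. The receptors Fzd6 and Fzd2 came next, at 24.4 ± 1.21 and 22.8 ± 1.39 CPM per kb, and lay within their spread of each other. After poly(I:C) this pair lay apart, with Fzd6 at 20.7 ± 0.459 and Fzd2 at 9.49 ± 0.453 CPM per kb, close to Fzd7 at 8.56 ± 0.723. Among ligands Wnt10b led in every group, at 30.4 ± 0.56 CPM per kb after poly(I:C), 18.2 ± 0.315 after poly(dA:dT) and 17.6 ± 0.2 in mock, followed by Wnt10a at 10.9 ± 0.739, 11.3 ± 0.785 and 11.1 ± 0.777. Summed over all listed members of a role, ligands had 48 ± 0.576 CPM per kb after poly(I:C), 39.6 ± 1.13 after poly(dA:dT) and 39 ± 1.12 in mock. Receptors summed to 51.7 ± 1.92 CPM per kb after poly(I:C), 65.4 ± 0.738 after poly(dA:dT) and 71.8 ± 1.81 in mock, and antagonists to 7.64 ± 0.209, 10.3 ± 0.85 and 14 ± 0.285. The ligand sum was thus higher after poly(I:C) and the receptor and antagonist sums lower, and within each sum Wnt10b, Fzd2 and Sfrp2 differed most between poly(I:C) and mock. No test was run on these sums.

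**Figure D3:**
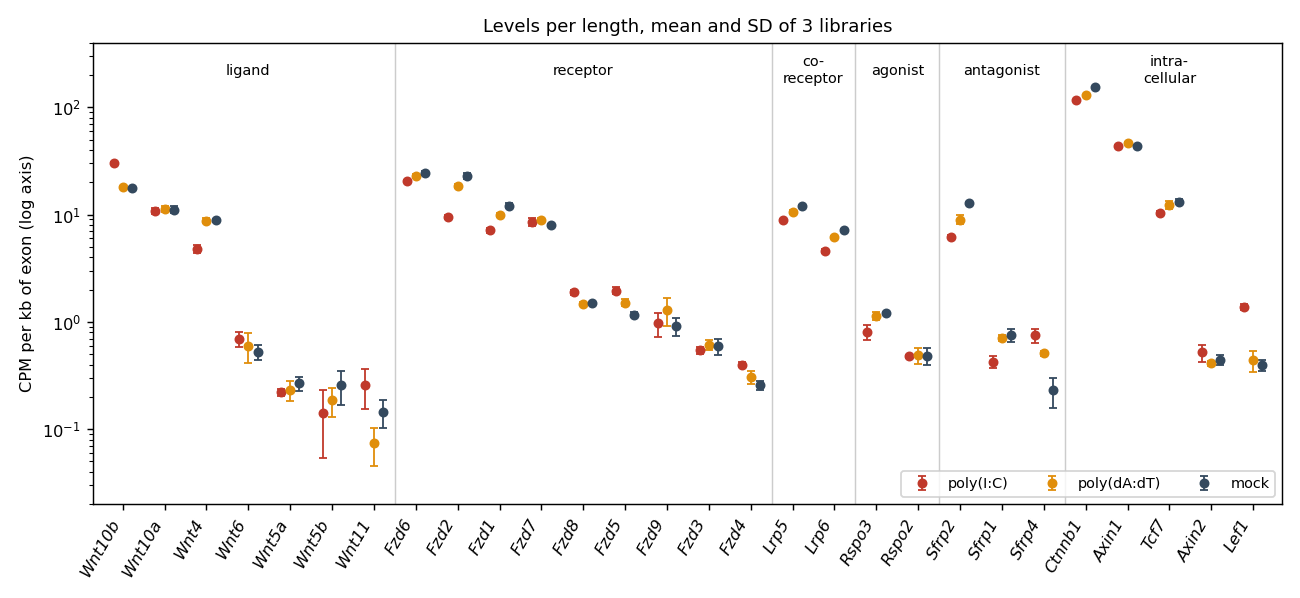
CPM per kb of exon (y axis, log scale) of the 28 tested members by role, ordered within a role by level, as mean and SD of 3 libraries per group in red for poly(I:C), orange for poly(dA:dT) and dark blue for mock. Ctnnb1 is highest and Wnt5b, Wnt11 and Sfrp4 are among the lowest; the red points of Wnt4, Fzd2 and Sfrp2 lie below the blue ones, and those of Wnt10b, Fzd5, Sfrp4 and Lef1 above.

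The remaining 18 members did not pass the filter on low counts, with no more than 14 counts in any library. They were 11 Wnt genes, Fzd10, Rspo1, all 4 Dkk genes and Sfrp5. The largest totals were those of Wnt2b, with 33, 25 and 19 counts over the poly(I:C), poly(dA:dT) and mock groups, and Wnt1, with 32, 13 and 17. Dkk3 had 16, 10 and 21 counts, Dkk2 15, 6 and 8 counts and Wnt3 13, 5 and 8 counts in the same order of groups. Dkk1, an inhibitor of Lrp6 and a known target of β-catenin, had 1, 1 and 6 counts in the poly(I:C) libraries, 2, 0 and 2 in the poly(dA:dT) libraries and 0 in each mock library. With no filter on low counts, edgeR called 2 of these 18 genes. Dkk1 was called higher after poly(I:C) than in mock (adjusted p = 0.015), where 1 poly(I:C) library held 6 of the 8 counts. Wnt1 was called higher after poly(I:C) than after poly(dA:dT) (log2 fold change 1.43 ± 0.57, adjusted p = 0.0351).

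Other genes of the pathway were described through 7 lists of 88 genes, all found in the annotation and some placed in more than 1 list. Of these, 71 were tested. After poly(I:C), 19 rose and 38 fell against mock, so that 80.3% were called, with 76.1% of all genes. Of the 71, 26.8% rose and 53.5% fell, with 39.8% and 36.3% of all genes. The median log2 fold change of the 71 was -0.25. After poly(dA:dT), 14 rose and 27 fell, 57.7% in all where the share of all genes was 52.8%, with a median of -0.04. These are 19.7% higher and 38% lower, with 26.6% and 26.2% of all genes. With scaling by total counts the split was 18 to 15, where all genes had 5000 called higher and 2392 lower. TMM gave 3769 and 3721 over all genes. Between the mimics 14 were higher and 35 lower after poly(I:C), 69% in all where 63.4% of all genes were called, with a median of -0.15. Here 19.7% were higher and 49.3% lower, with 31.3% and 32.1% of all genes.

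Secretion of Wnt ligands depends on the acyltransferase Porcn and the carrier Wls, which moved apart. Porcn had 12.6, 12.8 and 13.4 CPM after poly(I:C), 9.91, 7.57 and 8.82 CPM after poly(dA:dT) and 8.26, 9.67 and 6.78 CPM in mock. The poly(I:C) libraries lay above all others, with a log2 fold change against mock of 0.63 ± 0.10 (adjusted p = 5.06e-09). Wls had 294, 290 and 282 CPM after poly(I:C), 302, 306 and 317 CPM after poly(dA:dT) and 339, 336 and 355 CPM in mock, and fell by 0.25 ± 0.02 after poly(I:C) (adjusted p = 1.02e-19) and by 0.15 ± 0.02 after poly(dA:dT) (adjusted p = 3.58e-09) on the log2 scale.

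Of 15 further secreted or surface modulators 7 were tested, and after each mimic 1 rose and 3 fell against mock, 57.1% in all, with 76.1% of all genes called after poly(I:C) and 52.8% after poly(dA:dT). The shares that rose and fell were 14.3% and 42.9% after each mimic. Over all genes they were 39.8% and 36.3% after poly(I:C), and 26.6% and 26.2% after poly(dA:dT). The modulators that fell were Apcdd1, a membrane inhibitor of the pathway (log2 fold change -0.88 ± 0.06 after poly(I:C) and -0.23 ± 0.06 after poly(dA:dT)), Kremen1, a receptor for Dickkopf proteins (-0.59 ± 0.04 and -0.17 ± 0.04), and Tpbg, a surface inhibitor (-0.42 ± 0.06 and -0.18 ± 0.06). The call of Tpbg after poly(dA:dT) was lost without poly(dA:dT) replicate 3 (-0.12, adjusted p = 0.118) and with scaling by total counts (-0.11, adjusted p = 0.111). It shares 23.5% of its exon length with 9330154J02Rik on the opposite strand, which had 112, 115 and 139 counts over the poly(I:C), poly(dA:dT) and mock groups. Dand5, a secreted antagonist better known for Nodal, rose by 0.41 ± 0.10 after poly(I:C) (adjusted p = 8.71e-05) and by 0.40 ± 0.10 after poly(dA:dT) (adjusted p = 0.00023). Among the R-spondin receptors and the ubiquitin ligases they act on, 4 of 5 were tested. Lgr4, the R-spondin receptor with the higher count, had 16.2, 17.1 and 16.9 CPM after poly(I:C), 24.3, 25.6 and 23.5 CPM after poly(dA:dT) and 29.3, 24.9 and 28.6 CPM in mock. It fell by 0.72 ± 0.07 after poly(I:C) (adjusted p = 4.4e-19). Its fall after poly(dA:dT), 0.17 ± 0.06 (adjusted p = 0.0146), was lost without poly(dA:dT) replicate 3 (-0.15, adjusted p = 0.0856), without mock replicate 1 (-0.12, adjusted p = 0.165) or 3 (-0.16, adjusted p = 0.0507) and with total counts (-0.10, adjusted p = 0.181). Lgr6 averaged 0.662, 0.93 and 1.39 CPM in poly(I:C), poly(dA:dT) and mock cells, and fell by 1.00 ± 0.32 on the log2 scale after poly(I:C) (adjusted p = 0.00284). Znrf3, the ligase that removes Frizzled from the surface, averaged 21.1, 23.6 and 20.9 CPM in poly(I:C), poly(dA:dT) and mock cells, and its rise after poly(dA:dT), 0.17 ± 0.07 (adjusted p = 0.0228), was lost with DESeq2 (0.15, adjusted p = 0.0862), without mock replicate 1 (0.17, adjusted p = 0.0504) or 2 (0.16, adjusted p = 0.0683) and without poly(dA:dT) replicate 3 (0.15, adjusted p = 0.0829).

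Among alternative receptors and planar polarity genes 13 of 14 were tested, with 4 higher and 6 lower after poly(I:C) and 1 higher and 3 lower after poly(dA:dT). The shares called, 76.9% and 30.8%, stood beside 76.1% and 52.8% of all genes. After poly(I:C) 30.8% were higher and 46.2% lower, with 39.8% and 36.3% of all genes. After poly(dA:dT) 7.69% were higher and 23.1% lower, with 26.6% and 26.2% of all genes. Ptk7, a receptor-like protein of the planar polarity route, had 107, 102 and 113 CPM after poly(I:C), 164, 166 and 160 CPM after poly(dA:dT) and 174, 177 and 170 CPM in mock. Its poly(I:C) libraries lay far below the rest, with a log2 fold change against mock of -0.70 ± 0.03 (adjusted p = 1.65e-50), and poly(dA:dT) lay close to mock at -0.09 ± 0.03 (adjusted p = 0.005), a call lost with scaling by total counts (-0.01, adjusted p = 0.689). The planar polarity genes Celsr2 and Vangl1 fell by 1.09 ± 0.21 and 0.62 ± 0.05 after poly(I:C) (adjusted p = 1.08e-06 and 1.55e-25), and Prickle1 rose by 0.82 ± 0.27 (adjusted p = 0.00491).

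Of 18 tested Dishevelled and destruction complex genes, 5 rose and 10 fell after poly(I:C), and 5 rose and 7 fell after poly(dA:dT). After poly(I:C) 83.3% were called, with 76.1% of all genes. The shares that rose and fell were 27.8% and 55.6%, with 39.8% and 36.3% of all genes. After poly(dA:dT) 66.7% were called, with 52.8% of all genes. There 27.8% rose and 38.9% fell, with 26.6% and 26.2% of all genes. Tnks2, a tankyrase that marks Axin for degradation, had 266, 267 and 267 CPM after poly(I:C), 330, 333 and 335 CPM after poly(dA:dT) and 390, 390 and 404 CPM in mock, with log2 fold changes against mock of -0.56 ± 0.02 (adjusted p = 1.06e-54) and -0.24 ± 0.02 (adjusted p = 4.98e-20). The complex members Apc and Gsk3a fell by 0.42 ± 0.04 and 0.50 ± 0.05 after poly(I:C) (adjusted p = 3.55e-21 and 1.19e-18), and Nkd2, an inhibitor that binds Dishevelled, rose by 0.42 ± 0.14 (adjusted p = 0.00666). Gsk3a shares 28.3% of its exon length with 9130221H12Rik on the opposite strand, which had 134, 156 and 147 counts over the poly(I:C), poly(dA:dT) and mock groups.

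All 16 nuclear factors were tested, and 12 fell and 1 rose after poly(I:C). These are 75% lower and 6.25% higher, with 36.3% and 39.8% of all genes. After poly(dA:dT) 8 fell and 1 rose, 50% and 6.25%, with 26.2% and 26.6% of all genes. The list holds both coactivators and repressors of β-catenin, and members of both kinds fell. Aes, a short relative of the Groucho corepressors, had 152, 164 and 166 CPM after poly(I:C), 215, 212 and 205 CPM after poly(dA:dT) and 282, 277 and 268 CPM in mock. Its groups did not overlap, with log2 fold changes of -0.78 ± 0.03 (adjusted p = 7.79e-59) for poly(I:C) and -0.39 ± 0.03 (adjusted p = 2.64e-29) for poly(dA:dT) against mock. Cby1, which binds and inhibits β-catenin, fell by 0.63 ± 0.05 after poly(I:C), and the coactivators Bcl9 and Bcl9l fell by 0.60 ± 0.05 and 0.52 ± 0.04 (adjusted p = 8.42e-26, 4.18e-21 and 3.17e-29).

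Of 21 reported transcriptional targets of the pathway 15 were tested, with 7 higher and 5 lower after poly(I:C), and 6 higher and 5 lower after poly(dA:dT). The share higher was 46.7% after poly(I:C) and 40% after poly(dA:dT), with 39.8% and 26.6% of all genes, and the share lower was 33.3% after each, with 36.3% and 26.2% of all genes. The rises were led by Jun, Myc and Vegfa, genes that many other signals also raise. Jun had 243 ± 8.75 CPM after poly(I:C), 118 ± 2.3 CPM after poly(dA:dT) and 50.9 ± 1.61 CPM in mock (SD, n = 3 each), with log2 fold changes against mock of 2.25 ± 0.03 and 1.21 ± 0.04 (adjusted p = 1.78e-115 and 5.29e-72). Myc and Vegfa rose by 1.15 ± 0.04 and 0.87 ± 0.04 after poly(I:C) (adjusted p = 6.64e-70 and 1.2e-53), while Apcdd1, which stands in this list too, fell by 0.88 ± 0.06 (adjusted p = 1.18e-29). The endothelial marker sum moved in the same direction as Vegfa, and its part was not tested.

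**Figure D4:**
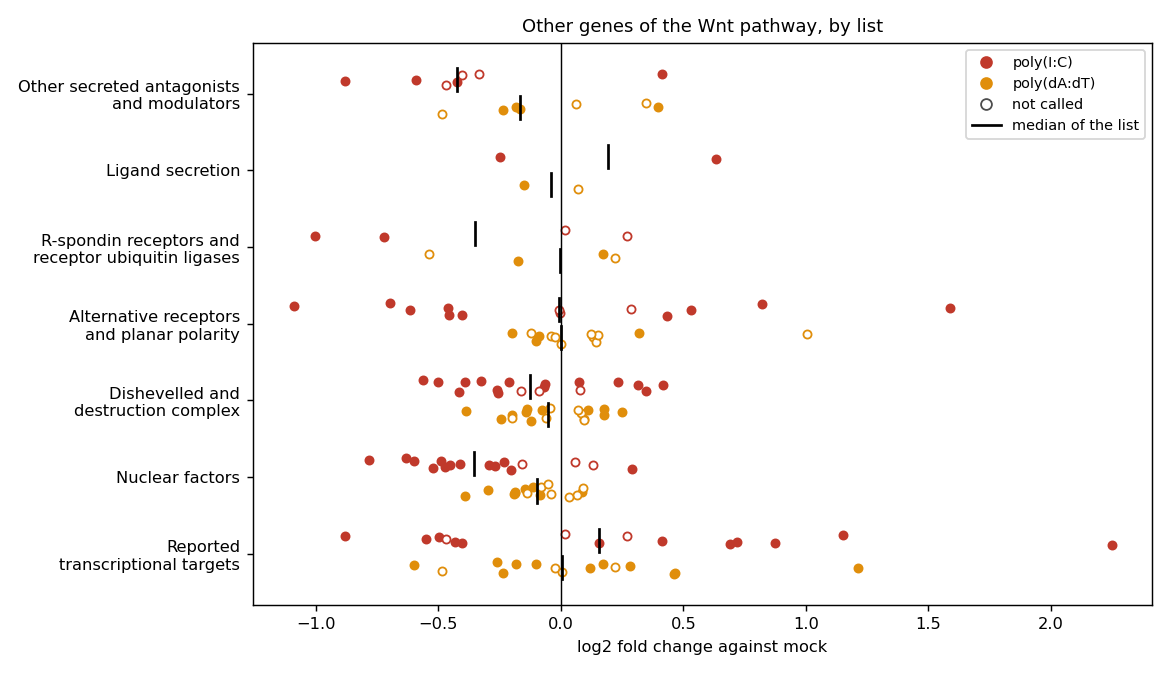
Log2 fold change against mock (x axis) of the tested genes in 7 lists of other Wnt pathway genes (y axis), 1 point per gene in red for poly(I:C) and orange for poly(dA:dT), filled where the adjusted p is under 0.05, with a black bar at the median of the list. The nuclear factors lie mostly below 0 after poly(I:C), and the reported targets lie on both sides, with Jun farthest to the right at 2.25.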

How the data were processed

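The authors deposited whole-number read counts per Ensembl gene, 1 set per library, 9 in all. TopHat2 2.1.0, HTSeq and DESeq2 with GRCm38.p4 are named per the submitters' processing notes; RNeasy total RNA and a TruSeq v2 kit, which does not mark strand, per the labels' protocols. Nothing in the sources used here gives the strand setting or the annotation release. Of 46603 identifiers, 46091 matched GENCODE M21. Reads shared with overlapping genes may be lost or misassigned.

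All 9 libraries entered 1 fit in edgeR 4.0.16 (R 4.3.3): TMM scaling, filterByExpr by group, robust quasi-likelihood test, two-sided, Benjamini-Hochberg adjustment over 14176 genes, threshold 0.05. SE is the absolute log2 fold change over the square root of F, the prior count 0.125, and CPM are TMM-scaled. The fit was run on simulated counts in which few genes changed, and those after poly(I:C) alone. That run does not check the scaling where most genes change, as in these data. Every library counted once, and replicate pairs differed beyond sampling noise (chi-square per degree of freedom 1.64 to 2.1). Separate preparations of the same culture could also differ in this way, so the check does not show separate cultures. Actb, the knocked-out gene, had 649, 736 and 565 counts after poly(I:C), 657, 680 and 716 after poly(dA:dT) and 924, 772 and 658 in mock; without the position of the deletion, these counts check no label. The labels name no batch.

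The members and lists were chosen with earlier results of these data known. Full values are given for members called in at least 1 comparison that reach a mean of 1 CPM in a group, and of each list up to 4 called genes with the largest change against mock are named, if they too reach a mean of 1 CPM in a group. Of 88 list symbols, 3 matched through an older symbol. Alternatives were other scalings (DESeq2 1.42.0 size factors, upper quartile, total counts), filters, DESeq2, a replicate block, 2-group fits and leaving out each library.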

Additional observations from a re-analysis of the deposited data

How the results depend on the processing

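Of 48 member calls, 41 held under every alternative setting run for them (17 in all); the others are named beside their genes. After poly(dA:dT), the 5 members called higher than mock were 3 with DESeq2 (30% of its calls, against 41.7%), and 3 to 5 with 1 library left out, the 3 without poly(dA:dT) replicate 3. Members called lower than mock after poly(dA:dT) numbered 6 to 7 with 1 library left out. After poly(I:C), leaving out 1 library gave 6 to 8 members higher and 11 to 12 lower than mock. For poly(I:C) against poly(dA:dT) it gave 6 to 7 higher and 11 to 13 lower.

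Scaling by total counts moved the median log2 fold change of all genes to 0.15 for poly(I:C) against mock, where TMM gave 0.04. For poly(dA:dT) against mock this median moved to 0.08, where TMM gave 0.01. With total counts, 15 other pathway genes were lower than mock after poly(dA:dT) where TMM gave 27, with 54.5% of calls higher where TMM gave 34.1%. All genes moved the same way, to 5000 higher and 2392 lower where TMM gave 3769 and 3721. Under total counts Csnk1a1 (0.0429) and Fbxw11 (0.0481), both called lower for poly(I:C) against mock with TMM, had the opposite sign. For the other pathway genes, leaving out 1 library gave 18 to 20 higher and 36 to 39 lower for poly(I:C) against mock, 13 to 14 and 23 to 26 for poly(dA:dT) against mock, and 11 to 13 and 33 to 35 between the mimics. The cause of these shifts was not tested.

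With replicate number as a block, member counts were 7 higher and 11 lower for poly(I:C) against mock, 5 and 7 for poly(dA:dT) against mock, and 6 and 12 between the mimics. Other pathway genes under the block had 18 and 37, 14 and 26, and 14 and 35 calls in the same comparisons. Deviations of same-numbered libraries correlated at -0.0138 to 0.0225 in 9 pairs, none over 0.1. In 3 of the 9 pairs the same number gave the highest correlation, so the numbers were not taken to pair the samples. With no filter, Dkk1 (poly(I:C) against mock, adjusted p = 0.015) and Wnt1 (between the mimics, adjusted p = 0.0351) were called, and 16 of the 18 sparse members were called in no comparison.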

Other observations

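Several Wnt genes lie beside each other in the genome (GRCm38), and their levels are given by pair. Wnt10b and Wnt1 lie 11.7 kb apart on opposite strands of chromosome 15. Wnt10b averaged 104 CPM after poly(I:C), 61.9 CPM after poly(dA:dT) and 59.8 CPM in mock, while Wnt1 had 8, 10 and 14 counts in the poly(I:C) libraries, 0, 8 and 5 in the poly(dA:dT) libraries and 4, 8 and 5 in the mock libraries. Wnt1 did not pass the filter on low counts.

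Wnt10a and Wnt6 lie 6.19 kb apart on the same strand of chromosome 1. Wnt10a averaged 10.9 CPM per kb of exon after poly(I:C), 11.3 after poly(dA:dT) and 11.1 in mock, where Wnt6 averaged 0.695, 0.596 and 0.525 CPM per kb in the same order of groups, and neither gene was called in any comparison. Wnt3 and Wnt9b lie 24.3 kb apart on chromosome 11 and were both below the filter, with 13, 5 and 8 counts for Wnt3 and 2, 4 and 0 counts for Wnt9b over the poly(I:C), poly(dA:dT) and mock groups.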
